A study of Mus musculus with 18 samples.

Results

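Nsdhl and 7 other genes of cholesterol synthesis were followed in female mouse ES cells that carried or lacked the histone demethylase gene Kdm6a. The members were chosen by symbol, namely Nsdhl, Hmgcs1, Sqle, Idi1, Fdft1, Cyp51, Insig1 and Srebf2, and these 8 rows were taken out of 24346 symbols. Libraries of Tsix-stop cells came from a strain-129 x cast cross in which a transcriptional stop in Tsix on the strain-129 X chromosome makes that X the inactive one (Xi) in every differentiated cell. At D0 (undifferentiated ES cells) and at D15 (embryoid bodies, EBs) there were 2 wt, 2 Kdm6a KO and 1 CRISPR control library. In the KO libraries, exons 2 to 4 of Kdm6a were deleted on both alleles in 2 clones, and the labels do not say which library is which clone. E8 cells came from a BL6 x cast cross with largely random X inactivation, and there were 2 wt and 2 KO libraries at D7 and again at D15 of nondirected differentiation. These days are those of the labels, whereas the study's methods describe E8 RNA-seq at D0, D2 and D4, so every E8 day below rests on the labels. By the study's methods the E8 KO was 1 clone with the Kdm6a promoter deleted on both alleles, so its libraries are not separate clones. For Tsix-stop wt the methods name 2 biological replicates, whereas for E8 they name 1 wt control. No label says that libraries came from separate cultures. The p-values measure the spread between libraries, which spans 2 clones in the Tsix-stop KO and may be technical in E8.

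Cells build cholesterol from acetyl-CoA through a long chain of enzymes. Hmgcs1 makes HMG-CoA, Idi1 isomerises the first isoprene unit, Fdft1 joins isoprenoids into squalene, Sqle oxidises squalene, and Cyp51 and Nsdhl take methyl groups off the lanosterol ring. Srebf2 encodes SREBP2, the transcription factor that turns these genes on when sterols are low, and Insig1 encodes the protein that holds the SREBP complex in the endoplasmic reticulum when sterols are plentiful. Nsdhl is the single X-linked member, so in these female cells its dosage depends on X inactivation as well as on sterols. Of the other 7, which are autosomal, Hmgcs1 and Idi1 are on chromosome 13, Sqle and Srebf2 on 15, Cyp51 and Insig1 on 5, and Fdft1 on 14. Nsdhl spans chrX:72918557-72958514 on the plus strand in GENCODE vM21 (GRCm38, the build of mm10), is protein coding, and has 2853 bases of exons.

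The promoters are shown because of the regulator SREBP2 described above, and the text returns to them in the E8 results. Whether SREBP2 acted on the members in these cells was not tested. RefSeq windows (GRCm38.p6) were at hand for 6 of the 8 members, and 250 bases upstream of the start were searched on both strands for TCACNCCAC, a form of the sterol regulatory element, and for CCAAT, the box of the NF-Y factor that often lies beside it. TCACNCCAC was found in Hmgcs1 alone of these 6, against 1.05% of all 32851 promoter windows. Only exact matches were counted, and other forms of the element were not searched, so a window without a match may still hold one. CCAAT was found in all 6 (Nsdhl 2 copies, Hmgcs1 3, Idi1 2, Cyp51 1, Insig1 1, Srebf2 1), against 33.8% of all windows. The Idi1 window lay wholly in annotated exons (250 bases), and the Cyp51 match lay in the 49 bases of its window that annotated exons cover. Capitals mark these matches, an ATTGG being a CCAAT on the other strand, and the runs are the stretches that no annotated exon covers, at chrX:72918412-72918520 for Nsdhl, chr13:119690101-119690350 for Hmgcs1, chr5:28071162-28071362 for Insig1 and chr15:82147019-82147180 for Srebf2, all on the plus strand.
Nsdhl: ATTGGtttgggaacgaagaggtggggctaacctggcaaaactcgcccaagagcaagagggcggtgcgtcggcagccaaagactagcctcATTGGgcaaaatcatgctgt
Hmgcs1: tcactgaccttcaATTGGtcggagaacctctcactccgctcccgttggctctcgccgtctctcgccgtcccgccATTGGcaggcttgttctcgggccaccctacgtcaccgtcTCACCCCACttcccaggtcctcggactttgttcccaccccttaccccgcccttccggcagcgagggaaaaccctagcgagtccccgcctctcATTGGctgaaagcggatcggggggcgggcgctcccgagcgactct
Insig1: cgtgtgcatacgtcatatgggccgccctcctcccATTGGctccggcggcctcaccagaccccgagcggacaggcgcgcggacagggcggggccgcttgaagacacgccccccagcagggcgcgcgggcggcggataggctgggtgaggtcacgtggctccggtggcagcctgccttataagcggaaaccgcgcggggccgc
Srebf2: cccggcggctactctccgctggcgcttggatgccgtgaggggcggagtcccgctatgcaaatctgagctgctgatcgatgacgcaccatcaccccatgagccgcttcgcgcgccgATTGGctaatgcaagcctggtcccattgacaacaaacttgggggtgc
The copy in Hmgcs1 starts 137 bases upstream of the RefSeq start. A match is a run of letters and not evidence that a factor binds there.

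Tsix-stop libraries held 51091148 to 68796172 counts, and E8 libraries were deposited as TPM, so their depth is unknown. Kdm6a stood at 139 and 211 CPM in the Tsix-stop wt libraries and 132 and 49.6 CPM in the KO libraries at D0, and at 132 and 105 CPM against 94.8 and 27.6 CPM at D15, and in the CRISPR control at 128.9 and 94.7 CPM on the 2 days. A count over the whole gene also holds exons outside the deletion, so these values check nothing about the labels, and the libraries labelled KO are called KO here. In E8, where the promoter was removed, Kdm6a was 46.7 to 47.8 TPM in the wt and at most 0.0319 TPM in the KO libraries. The files of the CRISPR control carry a KO name against their labels, which were followed. Its library was closer to KO than to wt on both days, with a Pearson r of log2 CPM over tested genes of 0.984 and 0.9795 with KO against 0.969 and 0.967 with wt at D0, and of 0.940 and 0.970 against 0.930 and 0.932 at D15. Values with this control counted as wt depend on its label, and as a single library a day it carries no estimate of its spread. Pluripotency markers, which define the labelled ES cells, were present in all groups. At D15 these 7 genes summed to 2578 to 2923 CPM in Tsix-stop wt and 3914 to 5173 CPM in KO, and 7 fibroblast markers summed to 5442 to 5870 CPM in wt and 420 to 549 CPM in KO. Visceral endoderm markers, a list of 7 genes of the cells that make lipoproteins in the early embryo, summed to 441 to 458 CPM in wt and 15.6 to 36.5 CPM in KO at D15, and in the CRISPR control at D15 the pluripotency, fibroblast and visceral endoderm lists summed to 2777, 209 and 14.1 CPM. No gene of these lists was at 0 at D15. In bulk RNA, fewer cells of a type and less RNA per cell cannot be told apart, and the part of these cell types in the results was not tested.

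In Tsix-stop cells, Nsdhl mRNA fell between D0 and D15 in both genotypes, and at D15 KO EBs held more of it than wt EBs. Nsdhl was at 195 and 162 CPM in wt at D0, 177 and 191 CPM in KO at D0, 88.3 and 85.6 CPM in wt at D15, and 129.3 and 119 CPM in KO at D15. The 2 genotypes overlapped at D0, and at D15 both KO libraries were above both wt libraries. The log2 fold change of KO over wt was 0.02 (SE 0.12, FDR 0.95) at D0 and 0.45 (SE 0.12, FDR 0.024) at D15 by edgeR's quasi-likelihood test. From D0 to D15 Nsdhl fell by 0.95 on the log2 scale in wt (SE 0.12, FDR 1.6e-04) and fell by 0.52 in KO (SE 0.12, FDR 0.0064). The difference between these day effects was 0.43 (SE 0.17, FDR 0.103), which did not pass. It passed with DESeq2 (0.44, FDR 0.067) and in 4 other settings of scaling, filter or genome with edgeR FDRs of 0.092 to 0.097. Neither the replicate block nor the CRISPR control counted as wt brought it past the threshold. With libraries left out, the difference lay between 0.29 and 0.57, the highest being without wt D0 replicate 2. In order of level, the groups were KO D0 and wt D0, which did not differ beyond their spread, then KO D15, then wt D15. The CRISPR control was at 158 CPM at D0 and 117 CPM at D15. It lay below all 4 other libraries at D0, and at D15 it lay above both wt libraries and just below the lower KO library (119 CPM). Leaving out KO replicate 1 on both days left the D15 difference at 0.42 with an edgeR FDR of 0.119, leaving out wt D15 replicate 2 left it at 0.44 (FDR 0.103), and counting the CRISPR control as wt left it at 0.33 (FDR 0.149).

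The plot of the 8 members by library shows the day effect on Nsdhl, Sqle and Idi1 beside the flatter Fdft1 and Cyp51.

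**Figure D1:**
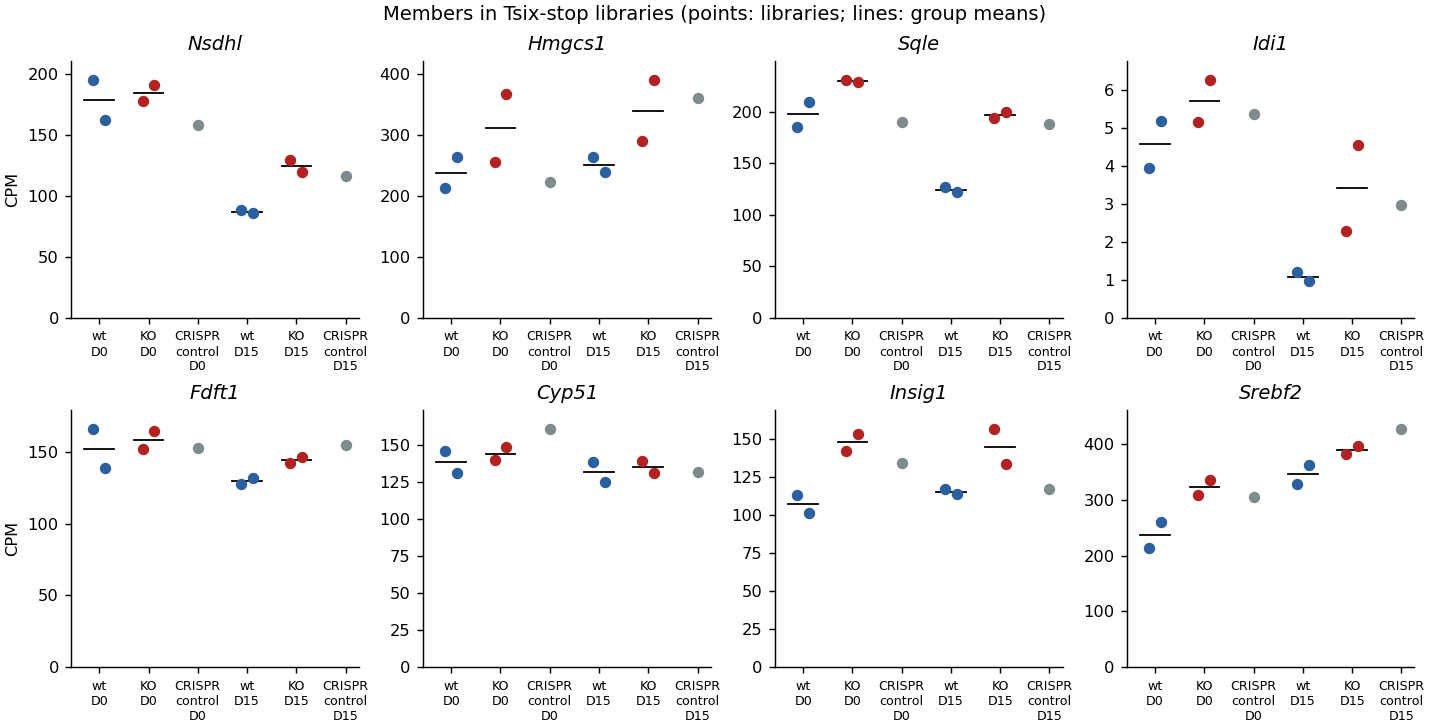
Level of each member in the 10 Tsix-stop libraries, in CPM, with 1 point per library and a line at the mean of each group of 2. Nsdhl, Sqle and Idi1 stood lower in wt at D15 than in wt at D0, and both KO libraries at D15 lay above both wt libraries for each of these 3 genes. The CRISPR control library at D15 also lay above both wt libraries for these 3 genes.

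At D0 none of the 8 members was a differentially expressed gene (DEG, FDR at most 0.1 and at least 2-fold), where 8.12% of the 13121 genes tested were. At FDR alone 2 members were higher and none lower in KO, against 9.11% and 11.4% of all genes. These were the regulators: Insig1 rose from 113 and 101 CPM to 142 and 153 CPM (log2 fold change 0.43, SE 0.12, FDR 0.046), and Srebf2 rose from 213 and 260 CPM to 309 and 335 CPM (0.42, SE 0.12, FDR 0.056). For both genes the KO libraries stood above the wt libraries, and the CRISPR control was at 134 CPM for Insig1 and 306 CPM for Srebf2. With that control counted as wt neither passed (0.32, edgeR FDR 0.367, and 0.29, FDR 0.491). Without wt replicate 2 the edgeR FDR of Insig1 was 0.153, without wt replicate 1 that of Srebf2 was 0.225, and leaving out either KO library at D0 also put both above 0.1 (0.107 and 0.197 for Insig1, 0.125 and 0.244 for Srebf2). The 6 enzymes did not pass, with log2 fold changes between 0.02 (Nsdhl) and 0.36 (Hmgcs1, SE 0.20). The median of the members was 0.24, and that of all genes tested -0.01.

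At D15, 1 of 8 members was a DEG (Idi1), against 14.9% of all genes, and at FDR alone 3 were higher and none lower, against 20.6% and 24.0%. Besides Nsdhl, Sqle, the squalene epoxidase, rose from 127 and 122 CPM in wt to 194 and 200 CPM in KO (log2 fold change 0.59, SE 0.10, FDR 0.0038). Hmgcs1 was at 264 and 239 CPM in wt against 290 and 391 CPM in KO, a difference of 0.37 that did not pass (SE 0.20, FDR 0.19). The KO libraries of Hmgcs1 lay above the wt libraries but far from each other, and the value was 0.60 (edgeR FDR 0.083) without KO D15 replicate 1 and 0.16 (FDR 0.629) without KO D15 replicate 2. With the CRISPR control counted as wt, neither Sqle (0.41, FDR 0.119) nor Idi1 (0.99, FDR 0.191) passed. At D15 that control lay between the KO libraries for Hmgcs1 (361 CPM) and Idi1 (2.97 CPM), and just below them for Sqle (189 CPM). For Fdft1 (155 CPM) and Srebf2 (427 CPM) it lay above both KO libraries. Its Insig1 (117 CPM) was beside wt, and its Cyp51 (132 CPM) was in the range of both genotypes. Srebf2 (0.10), Insig1 (0.26), Fdft1 (0.08) and Cyp51 (-0.03) did not pass either. The members' median was 0.31, and that of all genes 0.00.

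Idi1 was the single member past both thresholds, and its count depended on the genome that reads were counted on. On the strain-129 genome it held 256 and 294 counts in wt at D0, 80 and 55 in wt at D15, 305 and 392 in KO at D0, and 132 and 250 in KO at D15. On the cast genome the same libraries held 930 and 1034, 624 and 427, 1096 and 1250, and 810 and 824 counts. The cast count was 3.19 to 7.80 times the strain-129 count over the 10 libraries, whereas it was between 0.900 and 1.10 times for the other 7 members, and at least 2 times for 0.610% of the genes tested. With strain-129 counts the log2 fold change of KO over wt at D15 was 1.59 (SE 0.37, FDR 0.013), and from D0 to D15 Idi1 fell by 1.99 in wt (SE 0.37, FDR 0.0014). With cast counts the D15 difference was 0.73 (SE 0.19, edgeR FDR 0.019) and no member was a DEG in any of the 5 Tsix-stop comparisons. In the column for either genome Idi1 held 31 to 102 counts and did not reach the filter of 2.5 CPM in 2 libraries. Idi1 has a close paralog, Idi2, which held at most 20 counts in any of the 3 columns. Counts of Idi1 are therefore uncertain.

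**Figure D2:**
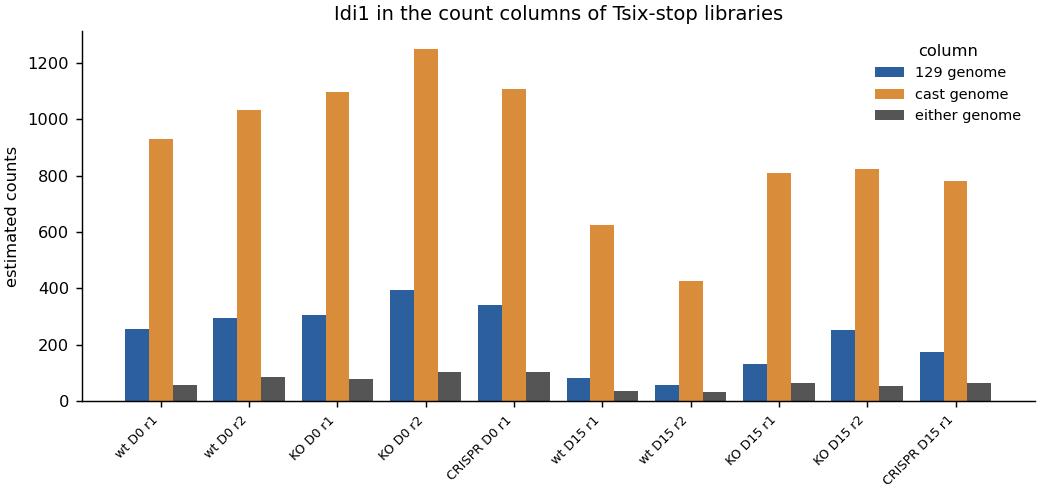
Estimated counts of Idi1 in the 10 Tsix-stop libraries, with 1 bar for each of the 3 diploid columns. In every library the cast genome column was the highest and the column for either genome the lowest, and wt at D15 held the lowest cast genome counts (427 and 624).

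Between D0 and D15 in wt, 1 of 8 members was a DEG (Idi1), where 37.8% of all genes were, and at FDR alone 1 was higher and 3 were lower, against 38.6% and 36.0%. Sqle fell by 0.58 (SE 0.10, FDR 0.0011), beside Nsdhl and Idi1, whereas Srebf2 rose from 213 and 260 CPM to 329 and 363 CPM (0.64, SE 0.12, FDR 0.0016). Hmgcs1, Fdft1, Cyp51 and Insig1 were between -0.14 and 0.19 and did not pass. In KO no member was a DEG, against 27.6% of all genes, and at FDR alone Srebf2 was higher (0.32, SE 0.12, FDR 0.052) and Nsdhl lower, against 33.8% and 30.9%. The Srebf2 call was lost without KO D0 replicate 1 (FDR 0.226), KO D0 replicate 2 (0.113) or KO D15 replicate 2 (0.178), with no filter (0.115) and with the CRISPR control as wt (0.166), all by edgeR. Idi1 in KO was at -0.70 (SE 0.35, FDR 0.12).

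The test of the difference between the day effects of KO and wt called Idi1 as a DEG (1.29, SE 0.51, FDR 0.096), against 17.1% of all genes. At FDR alone it also passed for Sqle (0.40, SE 0.15, FDR 0.079), so that 2 members were higher and none lower, against 16.8% and 17.4%. Sqle went from 231 and 229 CPM to 194 and 200 CPM in KO, which did not pass (-0.18, FDR 0.18), and fell in wt from 185 and 210 CPM to 127 and 122 CPM. In fits that left out 1 of the 8 libraries, Sqle lay between 0.32 and 0.49 and passed only without wt D0 replicate 1 (edgeR FDR 0.060), and Idi1 lay between 0.72 and 1.74 and passed only without KO D15 replicate 1 (FDR 0.024).

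The pathway beyond the members was described from 4 lists. Of 15 other synthesis enzymes none was a DEG between KO and wt on either day, against 8.12% of all genes at D0 and 14.9% at D15. At D15, 7 were higher and 1 lower at FDR alone, against 20.6% and 24.0% of all genes, and the median was 0.30. From D0 to D15 in wt, those that fell past 2-fold included Ebp, the X-linked sterol isomerase (-1.12, edgeR FDR 5.7e-05). Of 11 genes of SREBP control and uptake, 1 was higher and 5 were lower in KO at D15 at FDR alone, against 20.6% and 24.0%, with a median of -0.24. Mylip, a ubiquitin ligase induced by LXR, was a DEG at D15, at 20.3 and 19.6 CPM in wt against 8.86 and 9.08 CPM in KO (log2 fold change -1.22, SE 0.22). The day effects of KO and wt differed past both thresholds for Mylip (-1.54), for Stard4, a sterol carrier (-1.15), and for Scd2, a fatty acid desaturase (-1.13). With the CRISPR control counted as wt, Stard4 did not pass (-0.74, edgeR FDR 0.31). Of 5 tested genes of export, storage and LXR, Soat1, which esterifies cholesterol, rose by 2.80 in wt and by 2.16 in KO from D0 to D15, and Apoe rose by 1.02 and 1.38. Abca1, the cholesterol exporter, fell by 2.11 in wt and fell by 2.77 in KO. Of 9 genes of fatty acid synthesis, 8 were lower at D15 than at D0 in wt at FDR alone and 9 in KO, against 36.0% and 30.9% of all genes, with medians of -0.63 and -0.82, and the DEGs were Fasn in both genotypes (-1.62 and -1.65) and Scd1 (-1.80) and Scd2 (-1.76) in KO. Over the same days Mylip rose by 1.12 in wt, and Srebf1 fell by 1.06 in KO.

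The alleles of Nsdhl were compared by reads with SNPs, since the strain-129 X is the Xi in differentiated Tsix-stop cells. At D0 the strain-129 share of Nsdhl was 49.9% (95% Wilson interval 47.3 to 52.4) and 42.9% (40.0 to 45.9) in wt, and 45.9% (43.1 to 48.8) and 44.1% (41.5 to 46.7) in KO. At D15 it was 42.3% (38.6 to 46.0) and 33.6% (29.8 to 37.6) in wt, and 44.8% (41.5 to 48.1) and 41.5% (38.1 to 44.9) in KO. The intervals cover counting error only. The genotypes overlapped on both days, and at D15 one wt library stood below the other 3. The log2 difference of the strain-129 to cast ratio was -0.10 (SE 0.14, FDR 0.81) at D0 and 0.30 (SE 0.17, FDR 0.31) at D15, on 566 to 1510 SNP reads per library, and neither passed. The intervals of the 2 wt libraries at D15 did not overlap, and without wt D15 replicate 1 the D15 value was 0.59 (edgeR FDR 0.0995). From D0 to D15 the ratio of Nsdhl fell by 0.50 in wt (SE 0.16, FDR 0.030), and in KO it was at -0.10 (SE 0.15, FDR 0.74). The day effects of KO and wt differed by 0.40 (SE 0.22, FDR 0.36), which did not pass.

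Read by read, both alleles of Nsdhl were lower in wt at D15. Its strain-129 reads fell from 753 and 464 at D0 to 288 and 190 at D15 in wt, a log2 fold change of -1.27 (SE 0.20, FDR 3.0e-04) in a fit of strain-129 reads alone. Its cast reads fell from 757 and 618 to 393 and 376 (-0.86, SE 0.15, FDR 3.4e-04). At D15, KO was higher than wt by 0.59 in strain-129 reads (SE 0.20, FDR 0.057) and by 0.44 in cast reads (SE 0.15, FDR 0.041). Around Nsdhl, within 5 Mb on either side, the median strain-129 share of 44 X-linked genes with at least 50 SNP reads per library was 51.5% and 51.0% in wt at D0, 29.4% and 33.5% in wt at D15, and 46.9% and 44.9% in KO at D15. In the CRISPR control, the strain-129 share of Nsdhl was 45.3% at D0 and 37.5% at D15, and that of its neighbours 52.0% and 36.1%.

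**Figure D3:**
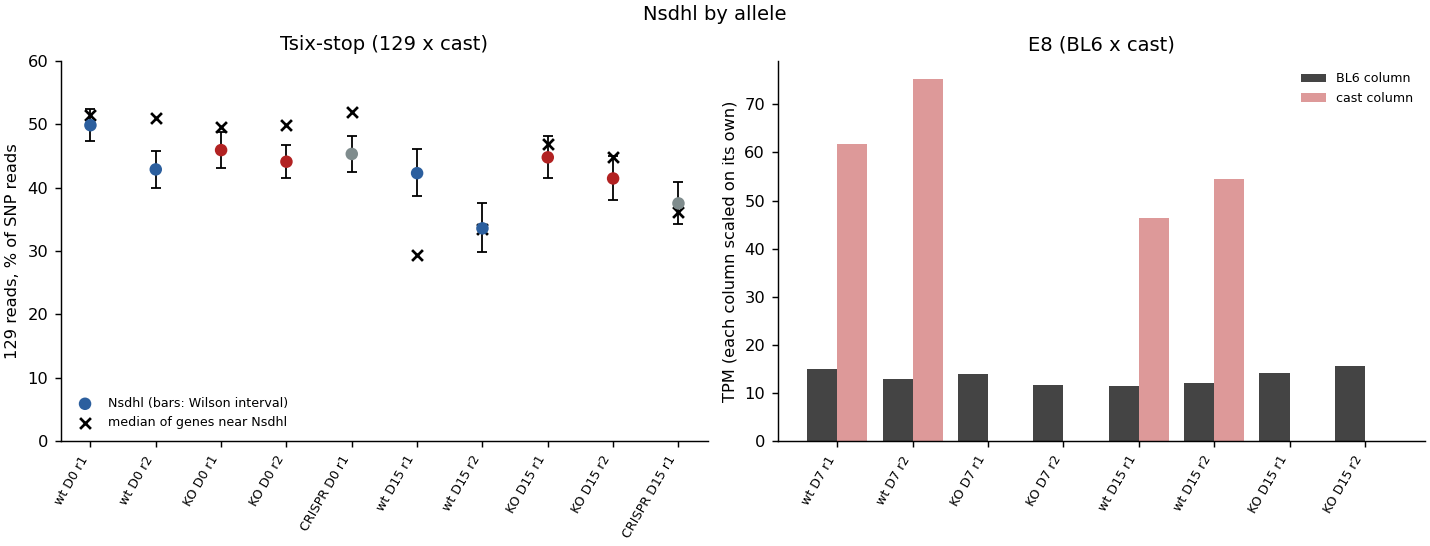
Left, share of strain-129 reads among SNP reads of Nsdhl in the 10 Tsix-stop libraries, with 95% Wilson intervals and crosses at the median of 44 genes near Nsdhl. Right, TPM of Nsdhl in the BL6 and cast columns of the 8 E8 libraries, where the cast column was at 0 in the 4 KO libraries and at 46.4 to 75.3 in the wt libraries.

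Of 7 members tested for alleles in Tsix-stop cells, Hmgcs1 and Cyp51 passed at D0 at FDR alone, against 11.3% of the 11142 genes tested, and Hmgcs1 passed at D15, against 19.2%. The strain-129 share of Hmgcs1 was 63.8% and 61.4% in wt and 68.6% and 78.2% in KO at D0, and 59.3% and 62.5% against 68.9% and 73.2% at D15. The log2 difference of the ratio was 0.75 (SE 0.16, FDR 0.0041) at D0, where it lay between 0.39 without KO D0 replicate 2 and 1.10 without KO D0 replicate 1, and 0.67 (SE 0.16, FDR 0.0075) at D15. The KO libraries stood above wt on both days, and KO replicate 2 was the highest. For Cyp51 at D0 the difference was 0.23 (SE 0.08, FDR 0.093). Idi1 had 9 SNP reads in 1 wt library at D15 and was not tested. The call of Cyp51 was lost without either KO D0 library (FDR 0.156 and 0.331), without either wt D15 library (0.142 and 0.145), without wt D0 replicate 2 (0.443), with the replicate block (0.108) and with the CRISPR control as wt (0.542), all by edgeR. That of Hmgcs1 at D15 was lost without wt D15 replicate 1 (0.57, edgeR FDR 0.145) and with the CRISPR control as wt (0.55, FDR 0.112).

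Before the E8 results, 1 property of the KO libraries bears on Nsdhl. Nsdhl was listed at 0 in the cast column in all 4 KO libraries, and at 61.8 and 75.3 TPM at D7 and 46.4 and 54.4 TPM at D15 in wt. Its BL6 column held 13.9 and 11.6 TPM at D7 and 14.03 and 15.6 TPM at D15 in KO, against 15.0 and 12.9 TPM and 11.4 and 12.1 TPM in wt. The BL6 values overlapped at D7, and at D15 the KO libraries were above wt. Of 280 X-linked genes with more than 5 TPM in the cast column and more than 1 TPM in the BL6 column of every wt library, 66 kept a cast share above 5% in all 4 KO libraries. This was 37 of 40 genes on the centromeric side of Kdm6a and 29 of 240 on the other side, which holds Nsdhl, a split chosen after the values were seen. Among the 20 such genes nearest to Nsdhl, 5 kept it. The median log2 fold change of KO over wt was -0.64 at D7 and -0.55 at D15 for X-linked genes, and 0.12 and 0.10 for autosomal genes. The loss of Kdm6a therefore cannot be told apart from the missing cast reads over most of the X, which bear on the X-linked genes directly, while their part in the autosomal results was not tested.

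In E8, Nsdhl was lower in KO than in wt on both days. It was at 105 and 105 TPM in wt and 43.5 and 41.6 TPM in KO at D7, and at 82.4 and 83.0 TPM against 47.3 and 50.2 TPM at D15. The groups did not overlap on either day. The log2 fold change, on the scale of log2(TPM + 1), was -1.28 (SE 0.04, limma FDR 8.4e-08) at D7 and -0.75 (SE 0.04, FDR 1.9e-06) at D15. Over the days Nsdhl fell by 0.34 in wt (SE 0.04, FDR 4.4e-04) and rose in KO by 0.19 (SE 0.04, FDR 0.0030). In order of level, the groups were wt D7, wt D15, KO D15 and KO D7, and each neighbouring pair in that order differed past FDR 0.1. The log2 difference of its BL6 to cast ratio, centred on autosomal genes, was 5.86 (SE 0.19, FDR 1.9e-06) at D7 and 5.98 (SE 0.19, FDR 1.9e-06) at D15. These sizes rest on the pseudocount, since the cast column was at 0. Of the 8 members tested for alleles, 2 passed at D7 (Nsdhl and Insig1, -0.37), against 22.6% of 10936 genes at FDR alone, and 2 at D15 (Nsdhl and Hmgcs1, -0.54), against 17.3%.

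The autosomal members went in opposite directions over the days in the 2 genotypes of E8, apart from Insig1 and Srebf2. Between D7 and D15, Hmgcs1 fell in wt from 164 and 175 TPM to 103 and 104 TPM, and rose in KO from 128 and 121 TPM to 201 and 207 TPM. Sqle fell in wt from 137 and 137 TPM to 83.5 and 89.6 TPM, and rose in KO from 87.7 and 86.8 TPM to 114 and 113 TPM. Fdft1, the squalene synthase, fell in wt from 56.8 and 56.1 TPM to 42.8 and 44.1 TPM, and rose in KO from 37.4 and 36.03 TPM to 48.98 and 51.8 TPM. For these 3 enzymes the KO libraries stood below wt at D7 and above wt at D15. Idi1 was low throughout, between 1.72 and 4.52 TPM, and likewise fell in wt and rose in KO. Cyp51, the lanosterol demethylase, was at 59.5 and 60.2 TPM in wt and 41.9 and 43.1 TPM in KO at D7, and at 54.1 and 56.1 TPM against 57.7 and 59.6 TPM at D15.

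**Figure D4:**
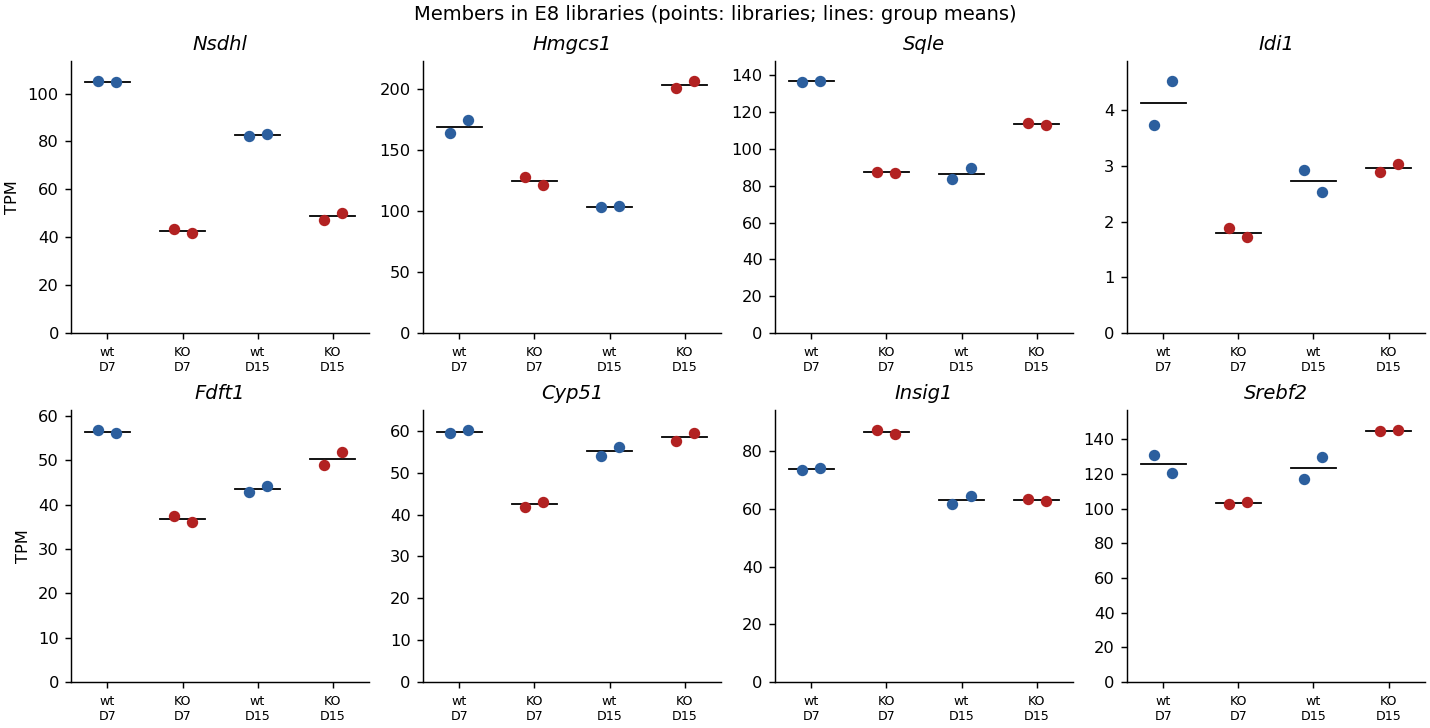
Level of each member in the 8 E8 libraries, in TPM, with 1 point per library and a line at the mean of each group of 2. Hmgcs1, Sqle and Fdft1 fell in wt and rose in KO between D7 and D15, Nsdhl stayed lower in KO on both days, and Insig1 fell in both genotypes.

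The test of the difference between the day effects passed at FDR alone for all 8 members, 7 higher and 1 lower, against 31.2% and 36.0% of the 12452 genes tested. Past 2-fold it held for Hmgcs1 (1.41, SE 0.06, FDR 3.3e-06) and Sqle (1.03, SE 0.05, FDR 7.3e-06), against 7.25% of all genes. Without wt D15 replicate 1 Sqle was at 0.98, under 2-fold, and Idi1 lay between 0.85 and 1.07 when 1 library was left out, so that 2 to 3 members were called. The others were Idi1 (0.96), Fdft1 (0.82), Cyp51 (0.57), Nsdhl (0.53), Srebf2 (0.51) and, in the other direction, Insig1 (-0.23). The members' median was 0.69 and that of all genes -0.03. Of the 6 members with a promoter window, Hmgcs1 is the one whose window held TCACNCCAC, and CCAAT stood in all 6, Insig1 included. Sqle and Fdft1 were not searched, and the part of these matches in the members' values was not tested.

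In wt no member was a DEG over the days, against 1.41% of all genes, and at FDR alone none was higher and 7 were lower, against 30.2% and 28.4%. The exception was Srebf2 (-0.03, SE 0.06, FDR 0.70), at 131 and 121 TPM at D7 and 117 and 130 TPM at D15. In KO no member was a DEG, against 6.11% of all genes, and at FDR alone 7 were higher and 1 was lower, against 36.3% and 39.6%. The 7 rose by between 0.19 (Nsdhl) and 0.71 (Hmgcs1, SE 0.04, FDR 6.7e-06), and Insig1 fell by 0.45 (SE 0.03, FDR 1.5e-05), from 87.3 and 86.0 TPM to 63.4 and 62.9 TPM. Srebf2 rose in KO from 103 and 104 TPM to 145 and 145 TPM (0.49, SE 0.06, FDR 1.8e-04).

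At D7 the comparison of KO with wt called 1 of 8 members a DEG (Nsdhl), against 17.5% of all genes. At FDR alone 7 were lower and 1 was higher, against 35.3% and 49.5%. The members' median was -0.55, and that of all genes 0.10. Besides Nsdhl, the changes lay between -0.87 (Idi1, SE 0.09) and -0.28 (Srebf2, SE 0.06), and Insig1 was higher in KO (0.23, SE 0.03, FDR 3.0e-04). At D15 no member was a DEG, against 10.7% of all genes. At FDR alone 5 were higher and 1 was lower, against 47.2% and 31.0%, the members' median being 0.15 and that of all genes 0.09. Hmgcs1 was the largest (0.97, SE 0.04, FDR 8.5e-07), followed by Sqle (0.39), Srebf2 (0.23), Fdft1 (0.21) and Cyp51 (0.09, FDR 0.050), whereas Idi1 (0.09, FDR 0.42) and Insig1 (0.00, FDR 0.96) did not pass. Rescaling each library to its median gene moved the median of all genes from 0.10 to -0.11 at D7 and from 0.09 to -0.08 at D15, and it moved Insig1 at D7 to 0.00 (FDR 0.98). At D15 it turned Cyp51 to -0.08 (FDR 0.058), Insig1 to -0.17 (FDR 6.8e-04) and Idi1 to -0.04, and left Fdft1 (0.04, FDR 0.28) and Srebf2 (0.06, FDR 0.22) short of the threshold. The DEGs were 1414 higher and 770 lower at D7, and 1046 and 1156 after rescaling, and 955 and 383 at D15, and 795 and 560 after rescaling.

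Marker genes differed between the E8 genotypes as well. The 7 visceral endoderm markers summed to 9.19 to 10.3 TPM in wt (Alb at 0) and 1089 to 1092 TPM in KO at D7, and to 6.55 to 6.89 TPM against 233 TPM at D15. Of these, 6 of 6 tested were DEGs on both days, against 17.5% of all genes at D7 and 10.7% at D15. Pluripotency markers summed to 12711 to 12823 TPM in wt and 4330 to 4458 TPM in KO at D7, and to 16407 to 17169 TPM against 7496 to 7711 TPM at D15. Their sum was thus higher at D15 than at D7, in cells labelled as differentiating, in both genotypes. Cycling markers ranged from 489 to 606 TPM over all 8 libraries. The part of these cells in the members' levels was not tested.

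Of 15 other synthesis enzymes, 12 were lower and 2 higher in KO at D7 at FDR alone, against 35.3% and 49.5% of all genes, and 8 were higher and 4 lower at D15, near the 47.2% and 31.0% of all genes. The day effects differed for 12 in the positive and 1 in the negative direction, against 31.2% and 36.0%, with a median of 0.60, and those past 2-fold included Dhcr7, which makes cholesterol from its last precursor (1.25, SE 0.06). Dhcr7 was a DEG at D7, at 85.2 and 79.8 TPM in wt and 34.3 and 32.3 TPM in KO. Of 11 genes of SREBP control and uptake, 7 were higher and 3 lower in KO at D7, against 49.5% and 35.3%. Among them Mylip rose by 1.25 and Npc1, the lysosomal cholesterol transporter, by 1.22. Mbtps2, the X-linked protease that releases SREBP, was lower in KO on both days (-1.14 and -1.03), and its cast column held at most 0.125 TPM in the KO libraries against 28.1 to 35.2 TPM in wt. Ebp, on the centromeric side of Kdm6a, kept cast reads in KO (89.5 to 112 TPM against 135 to 164 TPM in wt).

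Of 5 tested genes of export, storage and LXR, Soat1 rose in KO at D7 (1.31) and Abcg1 fell (-1.54), and the day effects differed for Abcg1 (1.44) and Abca1 (-1.24). Abca1 (1.20) and Apoe (1.02) rose over the days in wt, and Abcg1 (1.49) in KO. The 9 genes of fatty acid synthesis held no DEG in E8 in any of the 5 comparisons. Among all genes the share of DEGs was 17.5% at D7, 10.7% at D15, 1.41% over the wt days, 6.11% over the KO days and 7.25% in the interaction. At FDR alone their day effects differed for 6, all in the positive direction, against 31.2% of all genes, with a median of 0.32.

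**Figure D5:**
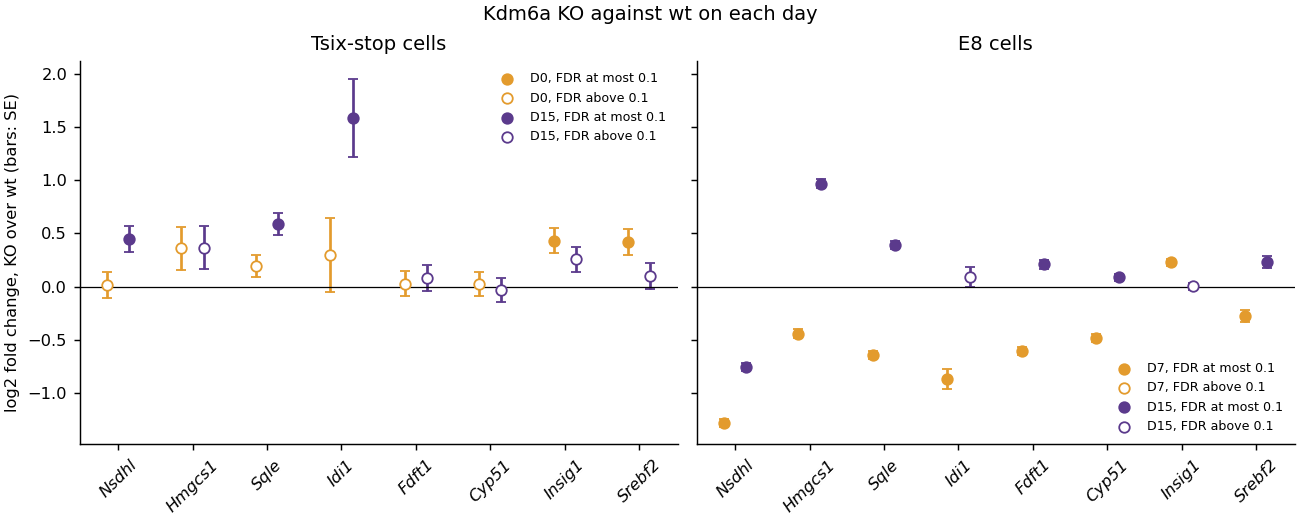
Log2 fold change of KO over wt for each member on each day, in Tsix-stop cells (edgeR) and E8 cells (limma on log2(TPM + 1)), with bars of 1 SE and filled points at an FDR of at most 0.1. Nsdhl was above 0 in Tsix-stop cells at D15 (0.45) and below 0 in E8 cells on both days (-1.28 and -0.75). In E8, 7 members were below 0 at D7, and at D15 Hmgcs1, Sqle, Fdft1 and Srebf2 were above 0, while Cyp51, Idi1 and Insig1 took the other sign after rescaling to the median gene.

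The lines had D15 in common, and their values are set side by side since the tables were normalised separately and hold different units. At D15 the direction in which KO libraries stood apart from wt libraries was the same in both lines for Hmgcs1, Sqle, Fdft1 and Srebf2, with KO above wt, although of these 4 only Sqle passed the test in Tsix-stop cells. The share of all genes that stood so in both lines was not computed, so this count has no background. In E8, Fdft1 (0.04, limma FDR 0.28) and Srebf2 (0.06, FDR 0.22) did not pass after rescaling to the median gene. In Tsix-stop cells the CRISPR control lay above both KO libraries for these same genes. For Nsdhl it was opposite, with KO above wt in Tsix-stop cells (0.45) and below in E8 (-0.75). Between genes, levels were compared per length. In wt at D15, Nsdhl had a mean of 121 TPM in Tsix-stop cells, computed here from counts and exon length, and 82.7 TPM in E8, which placed it at percentiles 87.0 and 85.3 of the genes tested. Hmgcs1 and Srebf2 were at percentiles 94.2 and 93.0 in Tsix-stop cells and 88.7 and 90.6 in E8, and Idi1 was the lowest member in both, at percentiles 2.02 and 9.12.

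Across the 10 Tsix-stop libraries, the log2 CPM of Nsdhl ran most like those of Gtf2b (Pearson r 0.991), Tti2 (0.991), Arpp19 (0.989), Coa7 (0.989) and Tyms (0.982). The autosomal members as a mean z-score ran most like Cacng8 (0.9495), Fbxl16 (0.947), Nipa1 (0.939), Exosc7 (0.934) and Camk2n2 (0.931). In the 8 E8 libraries, Nsdhl ran most like Klhl13 (0.999) and Txlng (0.998), both X-linked, Arhgap30 (0.998), Gm13157 (0.997) and Psmg1 (0.997), and the mean z-score of the autosomal members like G2e3 (0.995), Snrpn (0.989), Aldoa (0.988), Naa16 (0.985) and Arrdc4 (0.983). Among the members, Nsdhl ran closest to Idi1 in both lines (0.876 and 0.782), and the closest pair was Sqle and Idi1 in Tsix-stop cells (0.927) and Idi1 and Fdft1 in E8 (0.939). Libraries of 1 group and day share these values, so the correlations describe the pattern over few groups and carry no test.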

How the data were processed

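RNA-seq libraries were read from the processed tables: 10 of Tsix-stop cells and 8 of E8 cells, grouped by the line, genotype and day of their labels. The members and lists were chosen with earlier results of these data known. The authors made polyA libraries and mapped single-end reads, and the submitters' processing notes name Bowtie2 2.4.5, TopHat2 2.1.1 and build mm10. For Tsix-stop cells the authors deposited unnormalised estimated counts on the 129 genome, on the cast genome, on either, and by SNP allele. The first of these served as diploid level after rounding (7.1% of values were not whole). For E8 cells the authors deposited TPM, with each allele column scaled on its own, and 537 repeated symbols were summed. Which annotation was used and whether counting used strand is not given in the sources used here.

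Tsix-stop counts were fitted with edgeR 4.0.16 (quasi-likelihood, TMM, R 4.3.3) over the 8 wt and KO libraries, for genes that reached 2.5 CPM in 2 or more libraries. E8 values were fitted with limma 3.58.1 with trend on log2(TPM + 1) with the same filter. A DEG had an FDR (Benjamini-Hochberg) of at most 0.1 and at least 2-fold change. The 129 to cast ratio was tested with a term per library, on genes with at least 10 SNP reads in every library, and the BL6 to cast ratio with limma. The CRISPR control was described and entered no main fit. Scripts were tested on simulated data. With 2 libraries a group, an exact permutation test cannot go below p = 0.333, so none was run. Genes named outside the members were at most 5 DEGs per list and comparison, the 5 genes most like Nsdhl or the autosomal members, and the targeted gene, and some of these are not reported here. Alternatives included DESeq2 1.42.0, other filters and scalings, and leaving out libraries. Figures used matplotlib in Python.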

Additional observations from a re-analysis of the deposited data

Results flagged for a closer look

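Results are listed here where the fold change of KO over wt differed between days or lines. In Tsix-stop cells the day effects of KO and wt differed by a test of the interaction at FDR alone for Sqle (0.40 on the log2 scale) and Idi1 (1.29), of which the Idi1 counts also depended on the genome used. Among all genes 16.8% passed as higher and 17.4% as lower. Neither gene passed with the replicate block (edgeR FDR 0.112 and 0.107) or with the CRISPR control counted as wt (0.64 and 0.54). In E8 cells the interaction passed at FDR alone for each of the 8 members, 7 higher and 1 lower. Among all genes tested, 31.2% passed as higher and 36.0% as lower. The values were Hmgcs1 at 1.41, Sqle at 1.03, Idi1 at 0.96, Fdft1 at 0.82, Cyp51 at 0.57, Nsdhl at 0.53, Srebf2 at 0.51 and Insig1 at -0.23. At D15 Nsdhl was higher in KO than in wt in Tsix-stop cells (0.45) and lower in E8 cells (-0.75), with every KO library on that side of every wt library. This difference between the lines was not tested, and in E8 the cast column of Nsdhl was at 0 in the KO libraries.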

How the results depend on the processing

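Limits. Groups held 2 libraries, the Tsix-stop KO replicates differed in Kdm6a level, and E8 depth is unknown. The count on either genome and leaving out 1 KO replicate number on both days were chosen after seeing the data. Causes were not tested. Of the values recomputed under alternatives, 1703 kept their direction and side of the threshold, 62 no longer passed, 22 newly passed and 57 turned direction. Where a library left out leaves 1 in its group, that one is assumed to vary like the others.

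Members called as DEG. With no minimum fold the counts were 2 (D0), 3 (D15), 4 (wt days), 2 (KO days) and 2 (interaction) in Tsix-stop, and 8 (D7), 6 (D15), 7 (wt days), 8 (KO days) and 8 (interaction) in E8. In the same order, 2687, 5856, 9789, 8489 and 4481 of all 13121 genes tested passed in Tsix-stop. In E8 it was 10558, 9745, 7301, 9451 and 8369 of 12452 genes. Counts on the cast genome or on either genome left 0 at D15, 0 over the wt days and 0 in the interaction. The CRISPR control counted as wt left 0 at D15 and 0 in the interaction. No filter gave 2 over the wt days. In E8 at D7 a pseudocount of 0.1 gave 2 and rescaling gave 2. Without KO replicate 2 on both days 1 member was called over the KO days and 0 in the interaction. Leaving out 1 library gave 0 to 1 over the KO days, 1 to 2 over the wt days and 0 to 1 in the interaction in Tsix-stop, and 2 to 3 in the E8 interaction.

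Deviations of same-numbered libraries correlated with r of -0.156 to 0.197 in Tsix-stop and -0.162 to 0.116 in E8, so numbers do not pair libraries throughout. The 0.197 was between the KO groups of D0 and D15, where Kdm6a was lower in replicate 2 on both days, and whether the number follows the clone there is not in the labels. The replicate block left 0 members called in the Tsix-stop interaction, with Sqle at 0.40 (FDR from edgeR 0.112) and Idi1 at 1.22 (FDR 0.107).

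The following values changed sign. Without KO replicate 2 on both days, the D0 values were -0.024 (Nsdhl), -0.018 (Fdft1) and -0.0013 (Cyp51), and Cyp51 was 0.034 at D15, 0.030 over the KO days and 0.036 in the interaction. Cyp51 at D0 was -0.041 with the CRISPR control as wt, and at D15 it was 0.039 with no filter and 0.0055 with the CRISPR control. Over the wt days Cyp51 was -0.0043 with DESeq2 and -0.0043 with RLE factors, -0.075 with no filter, -0.0080 with cast counts, -0.0075 with counts on either genome, -0.11 with the CRISPR control, -0.0056 without KO replicate 1 and -0.0057 without KO replicate 2 on both days. Over the KO days Insig1 was -0.027 with no filter, -0.029 with cast counts, -0.0075 with either and -0.13 without KO replicate 1 on both days. In the interaction Hmgcs1 was -0.0095 with the replicate block and -0.18 with the CRISPR control, and Cyp51 0.047 with it. In E8 at D15, rescaling gave Idi1 -0.038, Cyp51 -0.080 and Insig1 -0.17.

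Leaving out 1 library gave ranges of -0.13 to 0.16 (Nsdhl, D0), -0.061 to 0.12 (Cyp51, D0), -0.089 to 0.033 (Cyp51, D15), -0.078 to 0.091 (Cyp51, wt days), -0.14 to 0.029 (Cyp51, interaction), -0.11 to 0.17 (Fdft1, D0), -0.081 to 0.19 (Fdft1, interaction), -0.064 to 0.44 (Hmgcs1, KO days), -0.00051 to 0.31 (Hmgcs1, wt days), -0.22 to 0.30 (Hmgcs1, interaction), -0.083 to 0.12 (Insig1, KO days), -0.029 to 0.033 (Insig1, E8 D15) and -0.10 to 0.047 (Srebf2, E8 wt days). For the Nsdhl allele ratio the ranges were -0.28 to 0.12 (D0) and 0.051 to 0.59 (D15).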
